A study of Mus musculus with 11 samples.

Results

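The 10 mesendoderm and primitive streak genes described here were followed across the libraries of a CTCF depletion experiment in mouse embryonic stem cells: T (Brachyury), Eomes, Mixl1, Gsc, Mesp1, Evx1, Wnt3, Fgf8, Cer1 and Lhx1. They were chosen by symbol as markers of these lineages, and all 10 were present among the 55228 symbols of the count and TPM tables. Of the 10, 8 had enough counts to be tested, and Evx1 and Cer1 were too low to judge. All 11 libraries came from 1 line, EN52.9.1 (CTCF-AID), grown in serum with leukemia inhibitory factor, in which the endogenous CTCF protein carries a degron and is degraded when the auxin analogue indole-3-acetic acid is added. EV cells without auxin, labelled as untreated and wild-type, gave 3 libraries (EV untreated). EV cells in 500 µM auxin, labelled as endogenous CTCF depletion, gave 2 libraries (EV auxin). Cells in 500 µM auxin that received FL CTCF gave 3 libraries (FL auxin), and cells in 500 µM auxin that received CTCF with the H373R substitution, titled ZF4, gave 3 libraries (H373R auxin). The length of the auxin treatment and whether the libraries of a group came from separate cultures are not given in the labels, so p-values measure only the spread between these libraries. The untreated cells carry the degron too, and no auxin-treated cells lacking it were analysed here.

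The primitive streak is the region of the early embryo where epiblast cells leave the pluripotent layer and become mesoderm and definitive endoderm. Wnt3 and Nodal signals from the epiblast and the overlying visceral endoderm start it, and the T-box factors T and Eomes are among the first genes to answer. Embryonic stem cells kept in serum with leukemia inhibitory factor are mostly pluripotent and express these genes at a low level, often in few cells. In bulk RNA a change in the number of cells that express a gene and a change in the RNA per cell cannot be told apart. Several members are not restricted to the streak: Eomes, Lhx1 and Cer1 are also expressed in visceral endoderm, the extraembryonic layer around the epiblast, and Eomes in trophoblast.

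T, Eomes and Lhx1 are the 3 members whose rise from EV auxin to FL auxin passed the test, and their promoters are shown to set these genes side by side. Each window runs from 250 bases before to 50 after the RefSeq start (GRCm38.p6, strand of the gene, 5′ to 3′), at chr17:8434173-8434472 on the plus strand for T, chr9:118477939-118478238 on the plus strand for Eomes and chr11:84525485-84525784 on the minus strand for Lhx1. Capitals mark matches to 5 patterns searched on both strands.
T: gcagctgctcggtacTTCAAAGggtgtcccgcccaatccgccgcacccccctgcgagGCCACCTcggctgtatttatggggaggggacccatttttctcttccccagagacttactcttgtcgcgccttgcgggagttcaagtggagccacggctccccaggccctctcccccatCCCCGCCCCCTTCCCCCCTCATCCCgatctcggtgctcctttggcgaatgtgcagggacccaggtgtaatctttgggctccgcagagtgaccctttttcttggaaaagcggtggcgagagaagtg
Eomes: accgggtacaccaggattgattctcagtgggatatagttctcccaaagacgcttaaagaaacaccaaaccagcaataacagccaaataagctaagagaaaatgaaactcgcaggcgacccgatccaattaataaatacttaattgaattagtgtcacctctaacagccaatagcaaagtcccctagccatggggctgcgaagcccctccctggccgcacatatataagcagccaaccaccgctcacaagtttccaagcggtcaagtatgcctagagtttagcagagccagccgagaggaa
Lhx1: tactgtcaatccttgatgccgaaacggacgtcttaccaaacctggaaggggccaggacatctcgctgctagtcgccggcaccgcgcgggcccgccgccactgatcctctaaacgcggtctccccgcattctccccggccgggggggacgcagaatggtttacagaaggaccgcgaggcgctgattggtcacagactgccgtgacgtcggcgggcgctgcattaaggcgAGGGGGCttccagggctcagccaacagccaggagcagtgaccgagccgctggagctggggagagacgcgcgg

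The patterns were a G-quadruplex pattern (4 runs of at least 3 G separated by 1 to 7 bases), AGGGGGC and AGGTGGC (letters of the CTCF core motif), CTTTGAT or CTTTGAA (TCF/LEF) and GGTGTGA (T-box). The T window held a G-quadruplex pattern on the opposite strand at its bases 176 to 200, which contains a match to AGGGGGC at bases 180 to 186. It also held AGGTGGC at bases 58 to 64 and CTTTGAA at bases 16 to 22, both on the opposite strand. The Lhx1 window held AGGGGGC at bases 229 to 235, and the Eomes window held none of the 5. Among 32851 windows of the same length over 27025 genes, 18.6% held the G-quadruplex pattern, 10.6% AGGGGGC, 6.15% AGGTGGC, 8.65% CTTTGAT or CTTTGAA, and 3.98% GGTGTGA. RefSeq windows were matched for 8 of the 10 members, all except Mixl1 and Fgf8. Of the other members with a window, Gsc held the G-quadruplex pattern and AGGGGGC on the strand of the gene, Wnt3 the G-quadruplex pattern, and Mesp1 the TCF/LEF letters at 2 places and GGTGTGA at 1, while Evx1 and Cer1 held none. These are matches of letters and say nothing about binding.

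The total count per library ranged from 13465241 to 29902246. The cells had the RNA profile of embryonic stem cells: the summed TPM (transcript abundance per length, scaled to the library total) of 10 stem cell markers such as Pou5f1, Sox2 and Nanog was 10369 to 11244 per library. The summed TPM of the 10 mesendoderm genes was 14.7 to 26.2. EV untreated replicate 1 stood apart from replicates 2 and 3 of its group (chi-square per degree of freedom of 15.5 and 14.8 over the tested genes, against 1.93 to 4.71 for the other pairs within groups).

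T was the member that separated the groups most clearly. It is the T-box factor that marks the streak and later the notochord, lies on chromosome 17 at 8434423 to 8442496 (GRCm38) and had 56 counts in all 3 EV untreated libraries together. Its level was 0.632, 0.441 and 1.03 CPM (counts scaled to the effective library size) in EV untreated and 1.20 and 0.955 CPM in EV auxin. It was 3.72, 2.43 and 3.62 CPM in FL auxin and 1.38, 1.32 and 1.77 CPM in H373R auxin. The 3 FL libraries were the highest of all, every H373R library lay above both EV groups, and the EV groups overlapped.

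With FL, T rose 3.14-fold over EV auxin (log2 fold change 1.65 ± 0.27, SE, edgeR adjusted p = 5.59e-04, n = 3 and 2). It thereby moved away from the untreated level, and was 4.62-fold above EV untreated (2.21 ± 0.25, SE, edgeR adjusted p = 8.80e-06). H373R auxin was 2.08-fold above EV untreated (1.06 ± 0.28, SE, edgeR adjusted p = 0.00582), but its difference from EV auxin did not pass (0.50, 95% interval -0.15 to 1.15, edgeR adjusted p = 0.263). In the direct comparison T was lower in H373R than in FL by 1.15 ± 0.22 on the log2 scale (SE, edgeR adjusted p = 0.00487), and FL was 2.22-fold the higher. The rise after auxin alone did not pass either (0.56, 95% interval -0.18 to 1.29, edgeR adjusted p = 0.285). The FL and EV untreated calls of T held in all 20 alternatives that tested it. The difference between H373R and FL passed in 18 of 20, and was lost with limma on log2(TPM + 0.1) (adjusted p = 0.0667) and with limma on log2(TPM + 1) without a TPM filter (adjusted p = 0.0823).

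**Figure D1:**
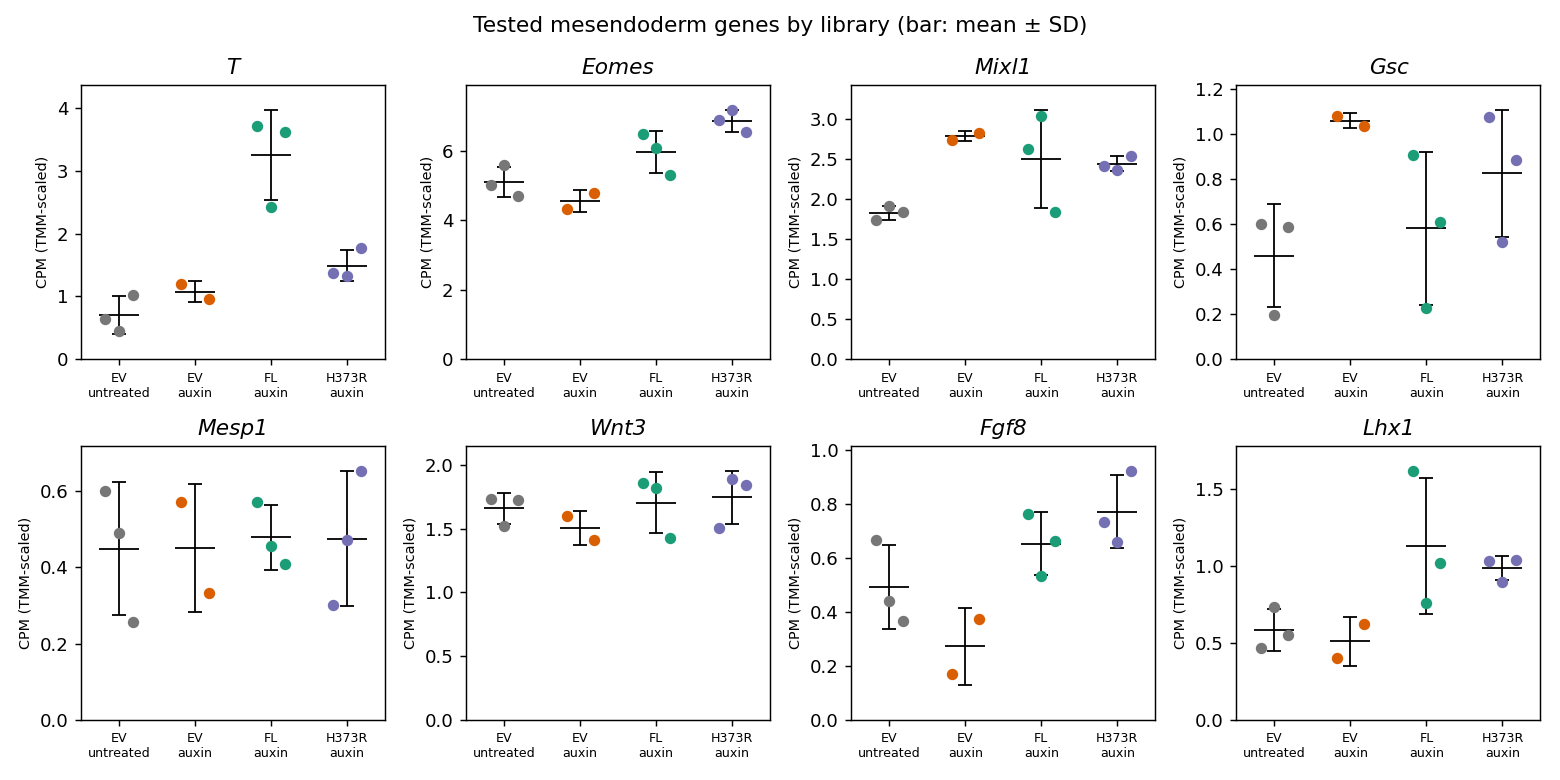
Level of the 8 tested members in each library. The y axis is CPM after TMM scaling, starting at 0. Each point is 1 library, and bars give the mean and SD of the group (n = 3, or 2 for EV auxin). T is highest in the 3 FL libraries (2.43 to 3.72 CPM), Eomes in the 3 H373R libraries (6.54 to 7.17 CPM), and Mesp1 and Wnt3 overlap across all groups.

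Eomes is the T-box factor that directs definitive endoderm and the earliest mesoderm. It lies on chromosome 9 at 118478212 to 118486132 and, with Mixl1, was among the members with the most reads. It had 5.03, 5.58 and 4.70 CPM in EV untreated, 4.33 and 4.77 CPM in EV auxin, 6.49, 6.08 and 5.30 CPM in FL auxin and 6.88, 7.17 and 6.54 CPM in H373R auxin. All H373R libraries lay above all others, and the 2 EV auxin libraries were the lower end of a range that overlapped EV untreated. In H373R auxin Eomes was above EV auxin (log2 fold change 0.58 ± 0.12, SE, edgeR adjusted p = 0.00391) and 1.35-fold above EV untreated (0.43 ± 0.10, SE, edgeR adjusted p = 0.00320). The first call was lost without EV auxin replicate 1 (0.52, edgeR adjusted p = 0.0524), the second in none of 21 alternatives.

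In FL auxin Eomes was 1.30-fold above EV auxin (0.38 ± 0.13, SE, edgeR adjusted p = 0.0459). That call was marginal: it passed in 9 of 21 alternatives, with adjusted p from 0.0214 to 0.217, and was lost without EV auxin replicate 1 or 2, FL replicate 1 or 2, or H373R replicate 1 or 2. H373R and FL did not separate at the threshold (0.20, 95% interval -0.03 to 0.43, edgeR adjusted p = 0.311), although their libraries did not overlap. By group means T was highest in FL auxin and Eomes in H373R auxin, but the order of these 2 groups was not resolved for Eomes. An antisense RNA, Gm33460, overlaps an exon of Eomes and had 34 counts over all 11 libraries. Whether the counting used strand is not given in the sources used here.

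Among the homeobox factors, Lhx1 rose with FL against both EV groups. Lhx1, a LIM homeobox factor of the organizer and the anterior visceral endoderm (chromosome 11, 84518284 to 84525535), had 0.466, 0.734 and 0.551 CPM in EV untreated and 0.399 and 0.623 CPM in EV auxin. It had 1.62, 0.759 and 1.02 CPM in FL auxin and 1.03, 0.896 and 1.04 CPM in H373R auxin. Every library of both reintroduction groups lay above every library of both EV groups. FL auxin was 2.23-fold above EV auxin (1.16 ± 0.36, SE, edgeR adjusted p = 0.0272) and 2.07-fold above EV untreated (1.05 ± 0.30, SE, edgeR adjusted p = 0.0115).

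Both FL calls of Lhx1 rested on FL replicate 1, the highest library. Without it the differences were 0.79 (edgeR adjusted p = 0.154) and 0.68 (edgeR adjusted p = 0.127), and the first was also lost without either EV auxin library. The first was lost with DESeq2 too (adjusted p = 0.0680), and both with limma without a TPM filter (adjusted p = 0.130 and 0.113). H373R auxin was 1.74-fold above EV untreated (0.80 ± 0.29, SE, edgeR adjusted p = 0.0358), a call lost without EV untreated replicate 1 or 3 or any 1 H373R library. That call passed in 11 of 18 alternatives, and was also lost with DESeq2 (adjusted p = 0.131) and limma without a TPM filter (adjusted p = 0.180). Against EV auxin H373R auxin was 0.91 higher (95% interval 0.15 to 1.67), which did not pass (edgeR adjusted p = 0.0807), but did without EV untreated replicate 1 (edgeR adjusted p = 0.0493). H373R and FL did not separate (-0.25, 95% interval -0.83 to 0.33).

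Mixl1, the Mix-like homeobox factor that is switched on in the streak by Nodal and Wnt signals (chromosome 1, 180693043 to 180697034), was the only member called after auxin alone. It had 1.73, 1.91 and 1.84 CPM in EV untreated and 2.74 and 2.82 CPM in EV auxin, with no overlap. The rise was 1.53-fold (log2 fold change 0.61 ± 0.18, SE, edgeR adjusted p = 0.0254). It passed in 15 of 21 alternatives and was lost without either EV auxin library or EV untreated replicate 3, with DESeq2 (adjusted p = 0.1105), with the replicate number as a block (edgeR adjusted p = 0.0580) and with limma without a TPM filter.

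With FL, Mixl1 had 2.62, 3.04 and 1.84 CPM, so the FL libraries, which differed from EV untreated only without FL replicate 3 (0.62, edgeR adjusted p = 0.00982), spanned the range from EV untreated to above EV auxin. With H373R it had 2.41, 2.36 and 2.54 CPM, above every EV untreated and below both EV auxin libraries. Neither differed from EV auxin at the threshold, with changes of -0.19 (95% interval -0.58 to 0.21) for FL and -0.19 (95% interval -0.56 to 0.18) for H373R. H373R auxin was 1.34-fold above EV untreated (0.42 ± 0.16, SE, edgeR adjusted p = 0.0456), a call that passed in only 6 of 21 alternatives and was lost without any 1 of 9 libraries: all those of the EV groups and of H373R, and FL replicate 1. Without EV untreated replicate 1 its edgeR adjusted p was 0.0987.

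Gsc, the goosecoid homeobox factor of the organizer (chromosome 12, 104471209 to 104473330), had 0.599, 0.196 and 0.588 CPM in EV untreated and 1.08 and 1.04 CPM in EV auxin. Its FL libraries were at 0.907, 0.228 and 0.612 CPM and its H373R libraries at 1.08, 0.519 and 0.885 CPM. The EV groups did not overlap and differed 2.16-fold, but the difference did not pass (1.11, 95% interval 0.21 to 2.02, edgeR adjusted p = 0.0759). It passed without EV untreated replicate 1 (edgeR adjusted p = 0.0264), with the replicate number as a block (edgeR adjusted p = 0.0198) and without the filter on low counts (edgeR adjusted p = 0.0108). Its lowest libraries held 3 and 4 counts. Evx1, the even-skipped homeobox factor of the posterior streak (chromosome 6), had 2 to 8 counts per library and failed the filter. Its pooled level was 0.116 CPM (exact Poisson 95% interval 0.0530 to 0.220) in EV untreated, 0.264 (0.132 to 0.473) in EV auxin, 0.205 (0.102 to 0.366) in FL auxin and 0.142 (0.0681 to 0.261) in H373R auxin. These intervals overlap and cover counting error only. Its antisense partner Evx1os had 5 counts in all.

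**Figure D2:**
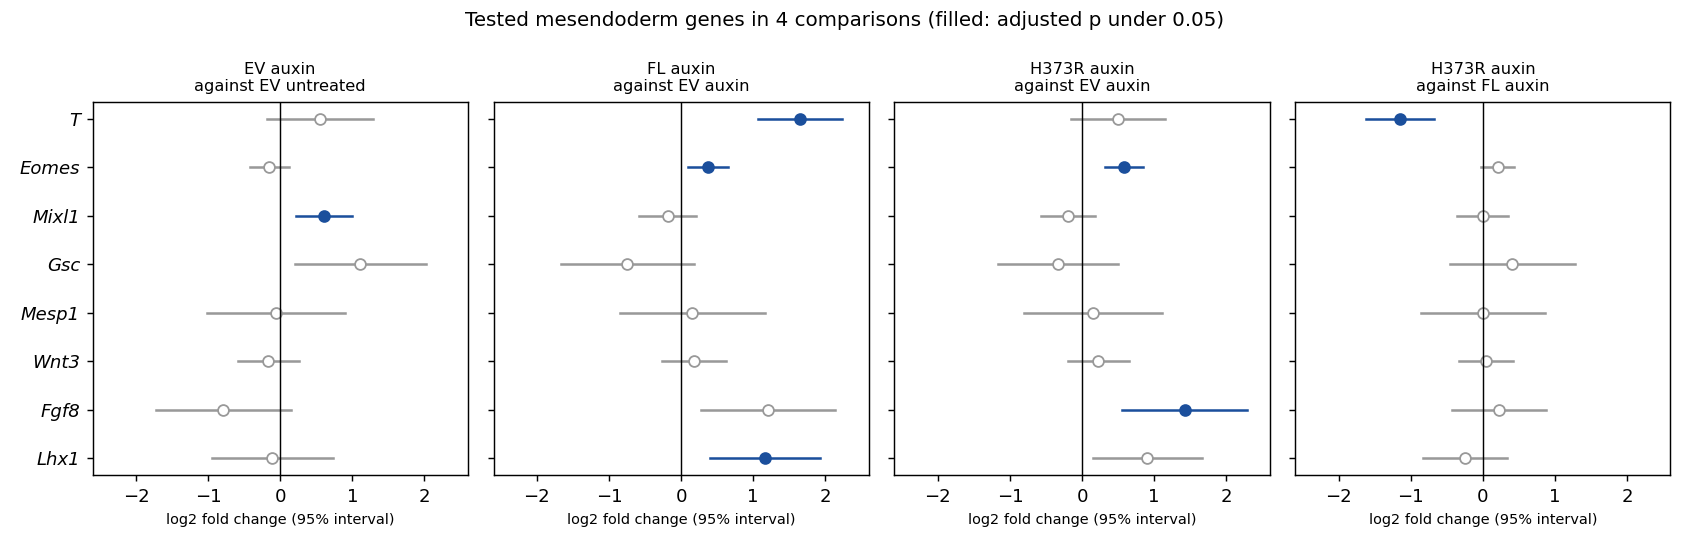
Log2 fold changes of the 8 tested members in 4 comparisons. The x axis is the log2 fold change of the first group over the second, lines are 95% intervals of the edgeR model, and filled points passed an adjusted p of 0.05. Mixl1 is filled after auxin, T, Eomes and Lhx1 with FL, Eomes and Fgf8 with H373R, and T alone between H373R and FL.

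Mesp1, the basic helix-loop-helix factor of nascent and cardiac mesoderm (chromosome 7, 79792241 to 79793788), showed no difference that could be resolved. It had 6 to 18 counts per library and group means of 0.449 ± 0.175 CPM in EV untreated (n = 3, SD), 0.451 ± 0.168 CPM in EV auxin (n = 2, SD), 0.479 ± 0.0847 CPM in FL auxin (n = 3, SD) and 0.476 ± 0.176 CPM in H373R auxin (n = 3, SD). For H373R against FL the 95% interval of its log2 fold change was -0.87 to 0.86, and for EV auxin against EV untreated it was -1.01 to 0.91. Changes smaller than these bounds were not detectable at this depth.

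Of the secreted members, Fgf8 was called in 1 comparison and Wnt3 in none, and Cer1 could not be judged. Fgf8, the ligand that cells need to move out of the streak (chromosome 19, 45736798 to 45742915), had 0.666, 0.441 and 0.367 CPM in EV untreated and only 0.171 and 0.374 CPM in EV auxin, which were 3 and 9 counts. It had 0.763, 0.532 and 0.663 CPM in FL auxin and 0.731, 0.660 and 0.923 CPM in H373R auxin. Both reintroduction groups lay above both EV auxin libraries, while EV untreated overlapped EV auxin and both of the others. Of the EV libraries only EV untreated replicate 1 reached the 0.475 CPM of the filter, which asks for 2 libraries. Fgf8 thus entered the test through the FL and H373R groups, where it is high. H373R auxin was 2.68-fold above EV auxin (1.42 ± 0.41, SE, edgeR adjusted p = 0.0195), a call lost without EV auxin replicate 1 (1.05, edgeR adjusted p = 0.171) or H373R replicate 3 (1.27, edgeR adjusted p = 0.0724). FL auxin was 2.30-fold above EV auxin without passing (1.20, 95% interval 0.27 to 2.13, edgeR adjusted p = 0.0545), and passed without EV untreated replicate 1 (edgeR adjusted p = 0.0302). Without that library the difference between H373R and EV untreated also passed (0.95, edgeR adjusted p = 0.0261, against 0.63 and 0.0937 with it).

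Wnt3, the ligand that induces the streak (chromosome 11, 103774150 to 103817957), passed in none of the 6 comparisons, in none of 21 alternatives each. Its group means were 1.66 ± 0.122 CPM in EV untreated (n = 3, SD), 1.50 ± 0.131 CPM in EV auxin (n = 2, SD), 1.70 ± 0.240 CPM in FL auxin (n = 3, SD) and 1.75 ± 0.209 CPM in H373R auxin (n = 3, SD). The 95% interval for H373R against FL was -0.34 to 0.42 on the log2 scale. Cer1, a secreted antagonist of Nodal, BMP and Wnt made by anterior visceral and definitive endoderm (chromosome 4), had 0 counts in both EV auxin libraries. A count of 0 over these 2 libraries allows up to 0.0721 CPM by a bound of 3 counts, or 0.0886 CPM by the exact Poisson 95% interval. It had 2 counts in EV untreated, 2 in FL auxin and 3 in H373R auxin, so no fold is given.

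Compared per length, Eomes was the highest member in EV untreated at 4.61 ± 0.356 TPM (SD, n = 3), followed by Mixl1 at 2.99 ± 0.143 TPM and Wnt3 at 2.03 ± 0.165 TPM. Gsc, Fgf8, Mesp1 and T followed at 1.14 to 1.37 TPM, with overlapping libraries, and Lhx1 at 0.538 ± 0.123 TPM. In FL auxin T reached 5.15 ± 1.18 TPM (SD, n = 3), next to Eomes at 5.24 ± 0.494 TPM, and their libraries overlapped. In H373R auxin Eomes (6.16 ± 0.260 TPM, SD, n = 3) and Mixl1 (3.96 ± 0.165 TPM) stood above T (2.40 ± 0.401 TPM) with no overlap.

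Counted in either direction, the members were called about as often as tested genes in general. After auxin 1 of 8 tested members was called, and it was higher, against 20.7% of the 16420 tested genes called and 11.3% called higher. With FL against EV auxin 3 of 8 were called, all higher (background 24.5% called, 11.1% higher). With H373R against EV auxin 2 of 8 were called, both higher (background 21.7% called, 10% higher). Fgf8, 1 of these 2, would not have passed the filter on the EV libraries alone. Against EV untreated 2 of 8 were called with FL, T and Lhx1 (background 36.9% called, 17.7% higher), and 4 of 8 with H373R, namely T, Eomes, Mixl1 and Lhx1 (background 44.4% called, 22.3% higher). Between H373R and FL 1 of 8 was called, T, which was lower (background 5.96% called, 2.82% lower). The median log2 fold change of the 8 was -0.080 after auxin, 0.28 with FL and 0.36 with H373R against EV auxin, 0.39 and 0.53 against EV untreated, and 0.019 between H373R and FL, while the medians over all tested genes lay between -0.014 and 0.0087. The number of all tested genes called moved with single libraries: after auxin it was 3392, but 5444 without EV untreated replicate 1 and 2036 and 1569 without EV auxin replicates 1 and 2. Between H373R and FL it was 979, but 2323 without EV untreated replicate 1 and 510 to 617 without FL replicate 2 or 3 or any 1 H373R library. Comparisons against the same control share its libraries and are not independent.

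The members did not move as 1 block. Over the 11 libraries Pearson's r of log2 CPM between pairs of tested members ran from -0.16 (Gsc and Wnt3) to 0.79 (Eomes with Fgf8 and Eomes with Lhx1). T had r = 0.67 with Lhx1 and 0.35 with Eomes. The points share libraries and groups, and several members have few counts, so these are descriptions. Of 12725 other genes that averaged 1 or more on the log2 CPM scale, Eomes was most like Abcg1 (r = 0.95), Tgif2 (0.94) and Parvb (0.93), and Mixl1 most like Fam167a (0.89), 4933434E20Rik (0.89) and Cox20 (0.88), each over 11 libraries. The other members were under that level.

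Other genes of the streak and nascent mesoderm were taken from a list of 25, of which 20 were tested. After auxin 3 were higher and 2 lower, with FL against EV auxin 4 were higher and 1 lower, and with H373R against EV auxin 5 were higher and 2 lower (medians 0.44, 0.28 and 0.31). Against EV untreated 11 were higher and 1 lower with FL, and 13 higher and 2 lower with H373R (medians 0.59 and 0.70). Over all tested genes 20.7% were called after auxin, near the share of this list. The shares were 24.5% with FL and 21.7% with H373R against EV auxin. Against EV untreated they were 36.9% with FL (17.7% higher) and 44.4% with H373R (22.3% higher). Foxc1, Foxf1 and Sp8, named after their values were seen, were called higher with both against EV untreated. They averaged under the filter's 0.475 CPM in both EV groups, so they entered the test through the FL and H373R groups. Foxc1 was also among the 5 higher with H373R over EV auxin. Wnt8a, called higher with FL, averaged 0.346 CPM in EV untreated. Without EV untreated replicate 1, 9 of the 20 were called after auxin rather than 5, and without either EV auxin library 4 rather than 7 with H373R against EV auxin. Cdx1, a homeobox factor of the posterior axis, went from 6.32 ± 0.789 CPM in EV untreated (n = 3, SD) to 13.7 ± 0.573 CPM in EV auxin (n = 2, SD), 20.7 ± 1.79 CPM in FL auxin (n = 3, SD) and 20.1 ± 0.490 CPM in H373R auxin (n = 3, SD), and rose at each step from untreated to auxin (1.12 ± 0.11, SE) and from auxin to FL (0.59 ± 0.10, SE). Kdr, the VEGF receptor of early vascular mesoderm, rose after auxin (1.05 ± 0.15, SE) and fell with FL (-0.62 ± 0.16, SE) and H373R (-0.66 ± 0.15, SE). Fgf17 fell after auxin (-0.45 ± 0.078, SE).

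Between H373R and FL 1 gene of this list was higher and 3 were lower, where 5.96% of all tested genes were called and 2.82% lower. The higher one, named after its value was seen, was Dll1, a Notch ligand (0.54 ± 0.094, SE, edgeR adjusted p = 0.00277), and the lower ones were Pdgfra, Apela and Fgf17. Pdgfra, a receptor of early mesoderm and also of primitive endoderm, had 3.91 ± 0.194 CPM in EV untreated (n = 3, SD), 2.96 ± 0.0826 CPM in EV auxin (n = 2, SD), 12.7 ± 0.623 CPM in FL auxin (n = 3, SD) and 6.41 ± 1.01 CPM in H373R auxin (n = 3, SD), and was lower in H373R than in FL (-0.98 ± 0.10, SE, edgeR adjusted p = 4.40e-05). Apela, the ligand of the apelin receptor, fell after auxin (-0.65 ± 0.15, SE), had 9.71 ± 1.16 CPM with FL (n = 3, SD) and 5.48 ± 0.332 CPM with H373R (n = 3, SD) (H373R against FL -0.82 ± 0.13, SE, edgeR adjusted p = 0.00118). Of 15 genes of definitive endoderm and the organizer 11 were tested. With FL against EV auxin 6 were higher and 1 lower, with H373R 5 were higher, and after auxin 2 were higher and 2 lower (medians 0.36, 0.43 and -0.052). Over all tested genes 24.5%, 21.7% and 20.7% were called in these comparisons. Foxa2, among those higher with FL and with H373R, averaged under the filter's 0.475 CPM in both EV groups. The 5 called with H373R became 9 without EV untreated replicate 1 and 3 without EV auxin replicate 1 or 2 or H373R replicate 3, and the 4 called after auxin became 2 without EV untreated replicate 2 or either EV auxin library. Dkk1, a secreted Wnt antagonist, had 1.86 ± 0.501 CPM with FL (n = 3, SD) and 0.772 ± 0.171 CPM with H373R (n = 3, SD) (-1.32 ± 0.26, SE, edgeR adjusted p = 0.00669). Sfrp5, another Wnt antagonist, went the other way and was higher in H373R (0.81 ± 0.10, SE). Foxj1, a factor of ciliated cells, fell after auxin (-0.89 ± 0.13, SE) and Nog, a BMP antagonist, rose (0.72 ± 0.22, SE).

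Markers of primitive and visceral endoderm rose in the same 2 groups. Over all tested genes 24.5% were called with FL and 21.7% with H373R against EV auxin. The share was 5.96% between H373R and FL and 20.7% after auxin. All 16 markers of the list were tested. Against EV auxin 14 were higher and 1 lower with FL (median log2 fold change 1.46) and 14 higher with H373R (median 1.09), and 6 were lower in H373R than in FL (median -0.46). After auxin 1 was higher and 1 lower, or 7 in all were called without EV untreated replicate 1. Without EV auxin replicate 1, 9 rather than 14 were called with H373R against EV auxin. The 1 lower with FL, named after its value was seen, was Hnf4a (-0.35). The summed level of the list was 124 to 131 CPM in EV untreated, 111 to 119 CPM in EV auxin, 285 to 314 CPM in FL auxin and 185 to 224 CPM in H373R auxin, and no marker was at 0 in any group. Gata6, a founding factor of primitive endoderm, had 4.21 ± 0.0393 CPM in EV untreated (n = 3, SD), 4.48 ± 0.292 CPM in EV auxin (n = 2, SD), 18.1 ± 0.322 CPM in FL auxin (n = 3, SD) and 10.8 ± 0.555 CPM in H373R auxin (n = 3, SD). Cubn, the uptake receptor cubilin, had 14.7 ± 1.92 CPM in EV auxin (n = 2, SD), 72.8 ± 7.27 CPM in FL auxin (n = 3, SD) and 39.99 ± 5.42 CPM in H373R auxin (n = 3, SD). Gata4 (1.14 ± 0.10, SE), Apob (2.32 ± 0.25, SE) and Lrp2 (1.08 ± 0.11, SE) rose with FL as well. Afp, Foxa2 and Ttr, called higher with both, averaged under the filter's 0.475 CPM in both EV groups. They entered the test through the FL and H373R groups. The list holds Sox17, Foxa2 and Hhex, which the endoderm and organizer list holds too. Their part in the values of Eomes, Lhx1 and T was not tested.

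**Figure D3:**
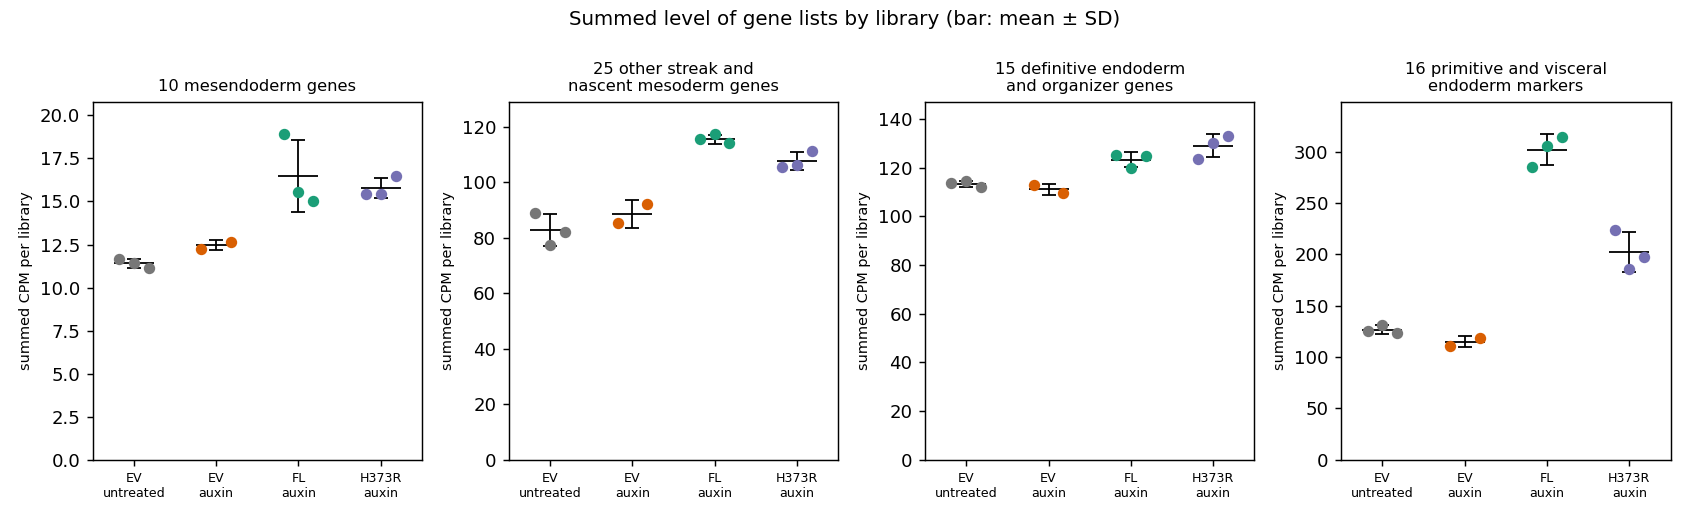
Summed CPM of 4 gene lists in each library. The y axis starts at 0, each point is 1 library, and bars give the mean and SD of the group. The 10 mesendoderm genes sum to 11.1 to 12.7 CPM in the EV libraries and 15.0 to 18.9 CPM in the others, and the endoderm markers to 285 to 314 CPM with FL.

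Markers of other lineages were called in part, where 24.5% of all tested genes were called with FL against EV auxin and 11.1% higher. With FL against EV auxin 3 of 9 tested trophoblast markers were higher and 1 lower, 2 of 6 tested neural markers were higher and 3 lower, and 3 of 4 tested fibroblast markers were higher. Among them Cdx2 of trophoblast (1.41 ± 0.34, SE), Sox1 (1.32 ± 0.090, SE) and Neurod1 (1.13 ± 0.11, SE) of the neural list and Col3a1 of fibroblasts (1.65 ± 0.25, SE) rose, and Nes of the neural list fell (-0.45 ± 0.079, SE). These 4 higher genes were lower in H373R than in FL, but they were named for their small adjusted p in that comparison. There 3 of 9 tested trophoblast, 2 of 6 neural and 1 of 4 fibroblast markers were lower and 0 higher. Over all tested genes 5.96% were called there and 2.82% lower. The part of these cell types in the values of the members was not tested. The summed level of 12 trophoblast markers was 206 to 227 CPM in EV untreated, 212 to 216 CPM in EV auxin, 206 to 227 CPM in FL auxin and 221 to 227 CPM in H373R auxin, with Prl3d1 at 0 in all groups. The largest term was Tfap2c, with means of 122 CPM in EV untreated and 88.5 CPM in FL auxin. Krt18 went the other way, from 24.8 to 38.4 CPM, so a steady sum can hold opposite changes. The 9 neural ectoderm markers summed to 258 to 292 CPM in EV untreated, 286 to 292 CPM in EV auxin, 229 to 258 CPM in FL auxin and 252 to 257 CPM in H373R auxin, with Neurog2 at 0 in H373R auxin. Most of the neural sum was Tubb3, with group means of 142 to 178 CPM. The 7 fibroblast markers summed to 56.0 to 66.6 CPM in the EV libraries, 77.0 to 91.9 CPM in FL auxin and 72.4 to 79.4 CPM in H373R auxin, with Lum at 0 in both EV groups and Postn in both others. The 6 markers of primed epiblast summed to 217 to 223 CPM in EV untreated and 259 to 280 CPM in the 3 auxin groups. Most of that sum was Dnmt3b, at mean levels of 169 CPM in EV untreated and 205 to 220 CPM in the auxin groups. After auxin 2 were higher (background 20.7% called, 11.3% higher). Against EV untreated 4 were higher and 1 lower with FL, and 3 higher and 1 lower with H373R (background 36.9% and 44.4% called). The lower one was Otx2 (-0.26 with FL and -0.23 with H373R). Wnt8a, among the 4 higher with FL, averaged 0.346 CPM in EV untreated, under the filter's 0.475 CPM.

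Genes of the signalling pathways that act on the streak were called in both directions, where 20.7% of all tested genes were called after auxin, 24.5% with FL and 21.7% with H373R against EV auxin. Of 17 Nodal pathway genes 16 were tested. After auxin 4 were higher and 2 lower, with FL against EV auxin 6 higher and 2 lower, and with H373R 5 higher and 1 lower (medians 0.0023, 0.14 and 0.10). The 6 called after auxin became 3 without EV auxin replicate 2, the 8 with FL became 5 and 4 without EV auxin replicates 1 and 2, and the 6 with H373R became 2 without EV auxin replicate 1. Lefty1 (1.13 ± 0.094, SE) and Lefty2 (0.98 ± 0.058, SE), feedback antagonists of Nodal, rose after auxin, as did Foxh1 (0.40 ± 0.074, SE), a DNA-binding partner of the Nodal effectors. Pcsk6, a protease that matures Nodal, was lower in H373R than in FL (-0.43 ± 0.053, SE), the only gene of the list called there, against 4 called without EV untreated replicate 1 and 2 without FL replicate 3. Among 20 tested Wnt pathway genes 4 were higher and 3 lower after auxin, and 6 were higher and 9 lower with FL against EV auxin (medians 0.0052 and -0.014), the latter 15 becoming 9 without EV auxin replicate 1. The gene with the smallest adjusted p was Nkd2, a feedback inhibitor of Wnt signalling, which fell after auxin from 8.98 ± 0.339 CPM in EV untreated (n = 3, SD) to 0.373 ± 0.117 CPM in EV auxin (n = 2, SD), a change of -4.61 ± 0.24 (SE, edgeR adjusted p = 2.62e-09). It rose with FL, to 1.68 ± 0.419 CPM (n = 3, SD; 2.17 ± 0.34, SE, over EV auxin), and was at 0.249 ± 0.103 CPM in H373R auxin (n = 3, SD), lower than in FL (-2.66 ± 0.31, SE, edgeR adjusted p = 1.05e-04). Its relative Nkd1 (1.03 ± 0.083, SE) and Tcf7 (0.30 ± 0.053, SE) rose after auxin. Among 13 BMP pathway genes 2 were higher and 1 lower after auxin, with Id2 (0.32 ± 0.086, SE) and Id3 (0.39 ± 0.11, SE) the higher ones (median 0.090). That count of 3 is near the share of all tested genes, and was 7 without EV untreated replicate 1, 1 without its replicate 2 or 3 and 0 without either EV auxin library. Id2 was also higher in H373R than in FL (0.54 ± 0.078, SE).

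Among 12 receptors and feedback genes of FGF signalling, all tested, 6 were lower and none higher in H373R than in FL (median -0.21), where 5.96% of all tested genes were called and 2.82% were lower. They were Dusp6, Spry4, Etv5, Spry2, Spred1 and, of the 4 receptors, Fgfr2 (-0.40 ± 0.089, SE), while Fgfr1, Fgfr3 and Fgfr4 did not pass (edgeR adjusted p = 0.479, 0.413 and 0.0897). Against EV auxin 6 were higher with FL (median 0.25), and 3 were higher and 3 lower with H373R (median -0.011), the latter 6 becoming 3 and 2 without EV auxin replicates 1 and 2 and 3 without H373R replicate 1 or 2. Dusp6, a phosphatase induced by ERK, had 30.5 ± 0.739 CPM in EV untreated (n = 3, SD), 24.8 ± 0.286 CPM in EV auxin (n = 2, SD), 51.2 ± 2.44 CPM in FL auxin (n = 3, SD) and 30.5 ± 1.12 CPM in H373R auxin (n = 3, SD). Spry4, a feedback inhibitor, was lower in H373R than in FL (-0.65 ± 0.041, SE). Fgf8 itself did not separate FL from H373R (0.22, 95% interval -0.43 to 0.87).

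The nearest protein coding gene on each side was examined for the 8 tested members, because CTCF shapes the contacts of neighbouring genes. Of 16 neighbours 13 were tested. After auxin 0 were higher and 3 lower, namely Cmc1, Nsf and Mrm1 (background 20.7% of all tested genes called). Against EV auxin 2 were higher and 3 lower with FL, and the same counts held with H373R (background 24.5% and 21.7%). Against EV untreated 1 was higher and 5 lower with FL, and 1 higher and 6 lower with H373R (background 36.9% and 44.4%). Between H373R and FL the smallest edgeR adjusted p among them was 0.213 (Aatf). On the side of higher coordinates of T, 82.9 kb away, lies Pde10a, which encodes a phosphodiesterase. It had 0.732, 0.685 and 1.03 CPM in EV untreated, 0.855 and 0.623 CPM in EV auxin, 2.19, 1.22 and 1.89 CPM in FL auxin and 1.25, 1.60 and 1.31 CPM in H373R auxin. Both reintroduction groups lay above both EV groups. Pde10a was higher than in EV auxin with FL (1.33 ± 0.30, SE, edgeR adjusted p = 0.00450) and with H373R (0.93 ± 0.30, SE, edgeR adjusted p = 0.0392), and H373R and FL did not separate (-0.41 ± 0.23, SE, edgeR adjusted p = 0.332). T2, 10.9 kb away on the other side, had 22 counts in all libraries together and was not tested.

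**Figure D4:**
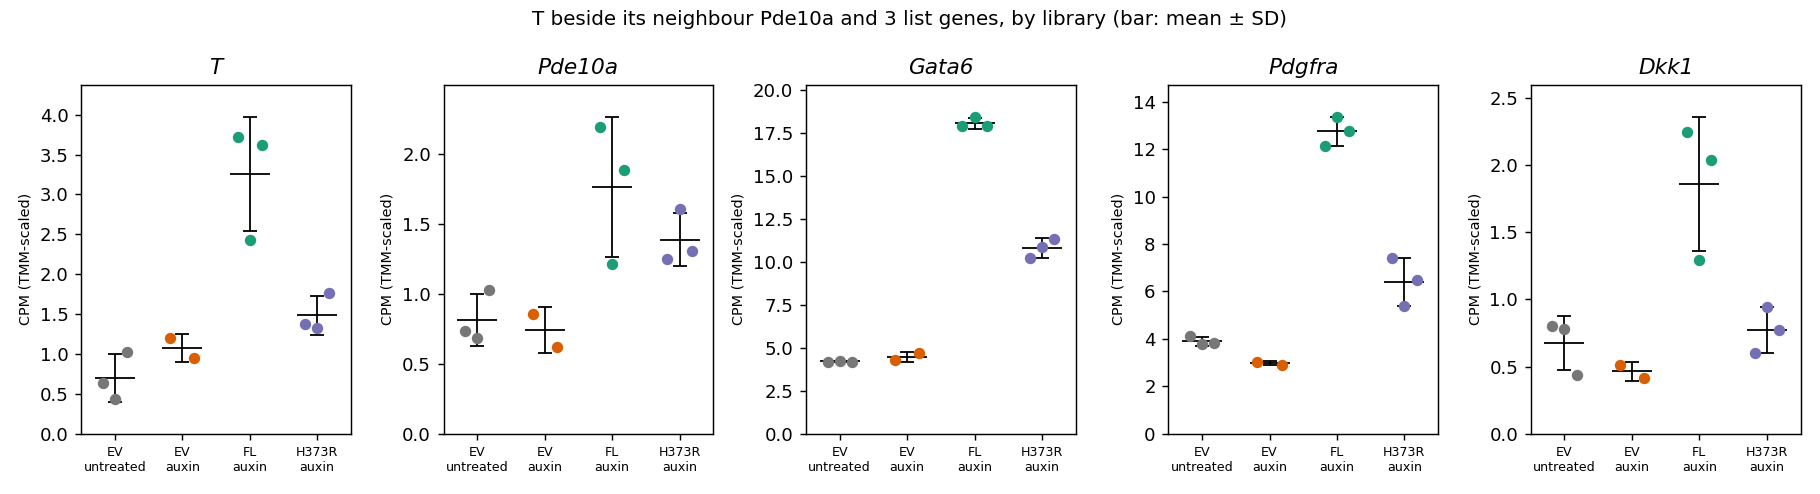
T, its neighbour Pde10a, the endoderm factor Gata6, the receptor Pdgfra and the Wnt antagonist Dkk1 in each library. The y axis is CPM after TMM scaling, starting at 0, points are libraries and bars the mean and SD of the group. In all 5 the FL mean is the highest, and in all but Pde10a no FL library overlaps an H373R library. Gata6, Pdgfra and Dkk1 were named for a small adjusted p between H373R and FL, so their separation follows from that choice. Sfrp5, Nkd1 and Id2, named by the same rule, were higher in H373R than in FL and are not shown.

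Some neighbours of other members were called too. Golga4, 20.1 kb from Eomes, was lower with FL (-0.51 ± 0.067, SE) and with H373R (-0.59 ± 0.066, SE) than in EV auxin, where Eomes was higher. Aatf, 4.8 kb from Lhx1, was lower with FL (-0.32 ± 0.055, SE) and with H373R (-0.43 ± 0.054, SE). Fbxw4, 76.5 kb from Fgf8, was higher with FL (0.42 ± 0.14, SE, edgeR adjusted p = 0.0435) and with H373R (0.52 ± 0.14, SE, edgeR adjusted p = 0.0146). Nsf, 3.8 kb from Wnt3, was lower in both, where Wnt3 did not pass. Lin9 and Acbd3 beside Mixl1 passed in none of the 6 comparisons.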

How the data were processed

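RNA of 11 libraries was analysed. The authors deposited raw counts per gene symbol and TPM values for the same libraries. Per the submitters' processing notes, featureCounts, Subread 2.0.3 and DESeq2 were used and the builds were mm10 and GRCm38. The aligner, the annotation and the strand setting are not given in the sources used here. Per the labels' protocols, libraries were made with a directional kit. Count divided by TPM gave 1 length per gene (largest relative difference 9.21e-15), so both tables carry the same reads. No column belonged to other samples.

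Counts were fitted with edgeR 4.0.16 in R 4.3.3 (TMM scaling, filterByExpr by group, which asks for about 0.475 CPM in 2 libraries and kept 16420 genes, group means over all 11 libraries, quasi-likelihood F test, Benjamini-Hochberg adjustment over all tested genes, threshold 0.05). A gene near the level of the filter could pass it through only the groups where it is high. SE and 95% intervals come from the edgeR model. A group whose counts sum to 0 is bounded at 3 counts over the group. Intervals and bounds on counts cover counting error only. The common coefficient of variation was 0.0578. Library totals were 13465241 to 29902246. Alternatives were RLE and upper quartile scaling, 2 other filters, DESeq2 1.42.0, a fit to the compared libraries alone, a block for the replicate number, limma 3.58.1 on log2 TPM (2 pseudocounts, and without the TPM filter), and omission of single libraries. On simulated counts of 16420 genes, 200 genes averaging over 1 CPM were changed 2-fold between EV untreated and EV auxin. Of these edgeR recovered 93.0% and made 12 false calls, where DESeq2 recovered 89.5% (16 false) and limma on log2(TPM + 1) 90.0% (7 false). Gsc, Mesp1, Fgf8 and Lhx1 average under that level, so this recovery does not cover them. Positions and neighbours come from GENCODE M21 (GRCm38) and promoters from RefSeq.

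The members and lists were chosen with earlier results of these data known. Named are all members, of each other list the 3 genes with the smallest adjusted p after auxin and the 2 with the smallest between H373R and FL (a choice among these is described), the nearest protein coding neighbours, and the 3 genes most like each member averaging 1 or more in log2 CPM.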

Additional observations from a re-analysis of the deposited data

How the results depend on the processing

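No call of a member or of another named gene changed direction under any alternative that tested it. For the 8 tested members, 890 values kept their side of the threshold, 52 lost it and 13 gained it. The number of members called depended on the setting. After auxin it was 1, but 2 without the filter on low counts, 0 with DESeq2 (2 members had an unadjusted p under 0.05) and 0 with limma on log2(TPM + 1) without a TPM filter, and 0 to 2 when 1 library was left out. With FL against EV auxin it was 3, but 1 with at least 10 counts in every library (which leaves 3 members), 1 with DESeq2 and 1 with limma without a TPM filter, and 1 to 4 when 1 library was left out. With H373R against EV auxin it was 2, but 1 with at least 10 counts in every library and 1 with DESeq2, and 0 to 3 when 1 library was left out. Between H373R and FL it was 1, but 0 with at least 10 counts in every library (which drops T), 0 with limma on log2(TPM + 0.1) and 0 with limma without a TPM filter, and 1 when any 1 library was left out. For FL against EV untreated it was 2, but 0 with at least 10 counts in every library and 1 with each of the 3 limma settings, and 1 to 3 when 1 library was left out. For H373R against EV untreated it was 4, but 2 with at least 10 counts in every library, 2 with DESeq2 and 2 with each of the 3 limma settings, and 2 to 4 when 1 library was left out. The cause was not tested except where fewer members were tested. Leaving out 1 EV auxin library leaves 1, which is assumed to vary like the other groups.

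Whether the replicate numbers pair the libraries was not settled. Deviations from the group means correlated at -0.087 to 0.28 in 15 pairs with the same number and at -0.197 to 0.13 in 30 pairs with different numbers. Of the 11 libraries 7 correlated best with a library of their own number. The deviations of the 2 EV auxin libraries mirror each other by construction, so their pairs cannot decide this. With the number as a block the counts of called members were 1 after auxin, 3 with FL and 2 with H373R against EV auxin, 1 between H373R and FL, and 2 and 3 against EV untreated. The member called after auxin was then Gsc (edgeR adjusted p = 0.0198) and no longer Mixl1 (edgeR adjusted p = 0.0580). At the depth of these libraries Evx1 and Cer1 could not be judged, and for Mesp1 a 1.5-fold change lay inside the interval of each comparison.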
